A study of Mus musculus with 9 samples.

Results

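T zone macrophages (TZM) are resident phagocytes of the part of the lymph node where T cells gather, and the genes described here are those that set them apart from 2 other populations at once. A gene was kept when the mean of the 3 TZM arrays lay above the mean of both other populations, or below both, and kept genes were ranked by the smaller of the 2 differences. Of 19938 genes tested, 6864 (34.4%) were above both means, 5277 (26.5%) below both and 7797 (39.1%) between them, so the rule kept 12141. Within these, a gene was called when it differed from each other population by at least 1 on the log2 scale at an adjusted p under 0.05 (limma with Benjamini-Hochberg adjustment over all genes). By this measure 410 genes were higher in TZM than in both (2.06% of all genes) and 118 were lower (0.592%). A log2 difference of 1 is a doubling of the measured level.

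The study compared TZM with CD8a+ dendritic cells (CD8a+DC, written DC here) and with microglia, each in 3 arrays labelled as biological replicates, 9 arrays in all. All mice carried the genotype CX3CR1 gfp+/-, in which the fractalkine receptor gene has lost 1 copy to a green fluorescent protein (GFP) reporter, so no group here has 2 intact copies. Age, sex, treatment and the number of animals behind an array are not given in the labels, and p-values therefore measure the spread between these samples, which may be technical. Cells were freed from minced tissue with collagenase I and DNase I, enriched on magnetic beads and sorted. TZM were lymph node cells with high GFP, MertK and CD11b and without CD169. The microglia gate took brain cells with high GFP, CD11b and CD45, which other brain macrophages can also meet. The DC gate took cells with high CD11c and MHC class II, with CD8a and without CD64; the sample fields place them in the lymph node and the sorting protocol in the spleen. Genes of these gates are not findings.

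TZM are known for engulfing dying lymphocytes, which display phosphatidylserine on their outer membrane. Engulfment of dead cells loads a phagocyte with membrane lipid, sterol, nucleic acid and protein, which are broken down in lysosomes, and excess sterol activates the liver X receptor and its targets for lipid export. Tissue macrophages also shape their surroundings through secreted phospholipases, complement, chemokines and growth factors. CD8a+ DC take up dead cells to present their antigens to T cells, and microglia are the macrophages of the brain parenchyma.

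The labels were checked against marker genes. The mean of 13 tissue macrophage markers ran from 10.39 to 10.61 in TZM arrays, 6.06 to 6.17 in DC and 10.97 to 11.08 in microglia. The mean of 12 type 1 DC markers ran from 9.70 to 9.83 in DC, 5.93 to 5.98 in TZM and 5.27 to 5.48 in microglia, and the mean of 12 microglia markers from 11.04 to 11.16 in microglia, 6.94 to 7.02 in TZM and 5.74 to 5.90 in DC. The DC and microglia lists were thus highest in the populations they name, and the tissue macrophage list was high in TZM and higher still in microglia. Microglia replicate 2 stood below the other microglia arrays for several genes named here, such as Cybb, at 7.76, 5.41 and 7.12 in the microglia arrays. Without it, 404 genes were higher in TZM and 115 lower. TZM replicate 2 stood apart from the other TZM arrays more often than they did, and its values are given beside the results they touch.

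Among the promoters of the genes higher in TZM, the motif that differed most in share, of 5 searched, was the binding motif of interferon regulatory factors (IRF), searched as GAAANNGAA on both strands with overlapping matches counted. It is shown here in 4 promoters that hold it. They are those of Pla2g2d and Timd4, from the phospholipase and engulfment results, and of 2 interferon-stimulated genes. Each line gives the 250 bases before a RefSeq transcription start on GRCm38.p6, all on the plus strand, with the matches in capitals; a match to the minus strand reads as TTC, 2 variable letters and TTTC. The intervals are chr4:138775485-138775734 for Pla2g2d, chr11:46810549-46810798 for Timd4, chr3:142559794-142560043 for Gbp3 and chr19:34640639-34640888 for Ifit1.
Pla2g2d: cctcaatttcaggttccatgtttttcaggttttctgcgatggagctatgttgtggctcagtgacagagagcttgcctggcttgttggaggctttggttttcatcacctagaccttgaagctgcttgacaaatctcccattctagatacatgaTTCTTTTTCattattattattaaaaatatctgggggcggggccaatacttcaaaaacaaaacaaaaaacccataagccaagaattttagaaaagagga
Timd4: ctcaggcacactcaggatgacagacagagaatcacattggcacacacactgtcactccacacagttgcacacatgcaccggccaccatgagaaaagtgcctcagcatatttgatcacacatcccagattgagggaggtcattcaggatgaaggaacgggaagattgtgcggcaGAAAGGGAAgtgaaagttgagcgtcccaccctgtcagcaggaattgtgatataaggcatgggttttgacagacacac
Gbp3: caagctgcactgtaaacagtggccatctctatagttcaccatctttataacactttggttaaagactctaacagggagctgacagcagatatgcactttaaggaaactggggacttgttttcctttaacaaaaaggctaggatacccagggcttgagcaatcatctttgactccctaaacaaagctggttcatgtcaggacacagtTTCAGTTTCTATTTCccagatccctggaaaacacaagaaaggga
Ifit1: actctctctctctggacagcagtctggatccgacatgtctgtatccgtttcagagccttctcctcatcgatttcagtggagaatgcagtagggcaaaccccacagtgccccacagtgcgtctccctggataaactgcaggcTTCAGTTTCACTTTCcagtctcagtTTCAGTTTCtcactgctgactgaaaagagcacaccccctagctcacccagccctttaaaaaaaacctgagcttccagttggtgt
Pla2g2d held 1 match, in a stretch rich in T, Timd4 1, which overlaps a PU.1 core described next, Gbp3 2 overlapping and Ifit1 3. A second RefSeq start of Gbp3 held 0 matches in its 250 bases. Elsewhere in the phospholipase and engulfment lists, Cd300lf also held an IRF match, while Axl, Marco and Pla2g7 held 0. Among other genes of largest difference, a start of Tgm1 held a match. Bpifa2, Smr3a, Ccl8, Cxcr2, Igf1, Prg3, Mcoln2, Gda and Nr1h3 held no IRF match.

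The promoter table, which reaches from 250 bases before to 50 after each start, had an entry for 313 of the 410 genes higher in TZM, 93 of the 118 lower and 15562 of all 19938. The IRF motif was in 71 of 411 promoters of genes higher in TZM (17.3%), in 5 of 123 promoters of genes lower (4.07%) and in 1498 of all 19115 (7.84%). Leaving out the members of the interferon-stimulated list described below, it was in 61 of 398 promoters of genes higher in TZM (15.3%) against 7.78% of all. Other interferon-inducible genes, such as the HIN-200 genes named at the end, are outside that list and were not left out. The remaining share is therefore not free of such genes. The PU.1 or Spi-C core GGAAGT was in 24.6% of promoters of higher genes, 29.3% of lower and 24.8% of all. The AP-1 motif TGANTCA was in 8.03%, 5.69% and 6.88%, and the MAF half-site TGCTGA in 21.2%, 13.8% and 17.7%. The liver X receptor motif, AGGTCA repeated in the same direction after 4 bases, was in 0 of the 19115 promoters, so these windows give no share for it. The matches are descriptions of letters, were not tested, and genes with several starts count once per start.

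All 410 genes higher in TZM had their 3 arrays above all 6 others, an arrangement found for 7.01% of all genes. In either direction the call used the same values. The arrangement thus follows largely from the call and is not separate support for it. Their smaller difference had a median of 1.70, with 163 genes at 2 or more and 33 at 4 or more. For 221 of them both other populations lay under a level of 6, near the low part of the scale, and for 116 both were at 6 or more. Differences against a level near background understate the true ratio, so the order of the largest differences is not an order of ratios. Of the 118 genes lower in TZM, 117 had non-overlapping arrays (4.90% of all genes), the median smaller difference was -1.404, and 19 reached 2 or more in size. On the combined contrast of TZM against the mean of both, 659 genes were higher (3.31%) and 306 lower (1.53%), and these included all 528 called against each population. The 2 pairwise comparisons share the TZM arrays: against DC 4.71% of genes were higher and 4.03% lower, and against microglia 4.25% and 3.40%. In sorted bulk RNA, a smaller share of expressing cells and less RNA per cell cannot be told apart.

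**Figure D1:**
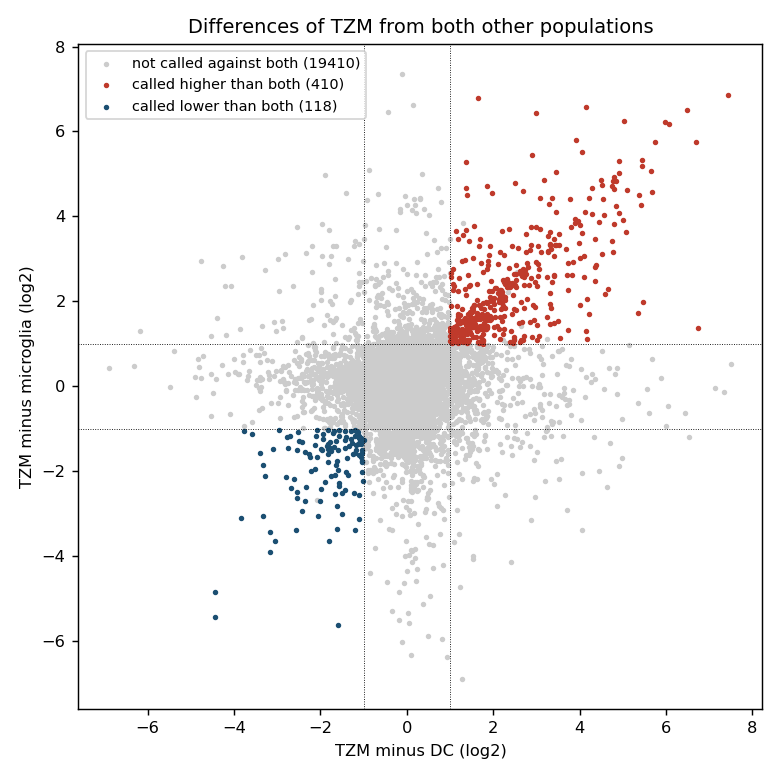
Difference of TZM from DC (horizontal axis, log2) against the difference from microglia (vertical axis, log2), 1 point per gene for 19938 genes; dotted lines mark 1 and -1. The 410 genes called higher than both lie in the upper right corner and the 118 called lower in the lower left, with 163 and 19 of them at 2 or more from both.

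The gene furthest from both populations was Pla2g2d, a secreted phospholipase that releases fatty acids from membranes. Its levels were 12.19, 12.02 and 12.17 in TZM, 4.38, 5.07 and 4.66 in DC and 5.35, 5.18 and 5.30 in microglia. The groups did not come near each other. It was higher than in DC by 7.42 (SE 0.15) and than in microglia by 6.85 (SE 0.15, limma adjusted p = 3.7e-08). Pla2g7, which encodes the enzyme that inactivates platelet-activating factor, read 10.23, 10.53 and 10.07 in TZM and no more than 6.19 in any other array (smaller difference 4.61). Plbd2, a lysosomal phospholipase-like protein, was higher by 1.46 and 1.65. In the opposite direction went Alox5ap, which hands arachidonic acid to the leukotriene pathway: it read 7.49, 7.84 and 7.84 in TZM, 11.06, 10.98 and 11.12 in DC and 10.76, 10.79 and 10.79 in microglia. Every TZM array was below every other array, at -3.33 against DC and -3.06 against microglia (limma adjusted p = 1.8e-07). Of 31 measured genes for phospholipases and eicosanoids, 3 were higher than both (9.68%, against 2.06% of all genes). Lower was 1 (3.23%, against 0.592%), and 27 were not called. This list and those below were chosen with earlier results of these data known, so their shares and their order are descriptions. The shares over all genes include genes of low level: 7446 of the 19938 reached a level of 6 in at least 1 TZM array.

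**Figure D2:**
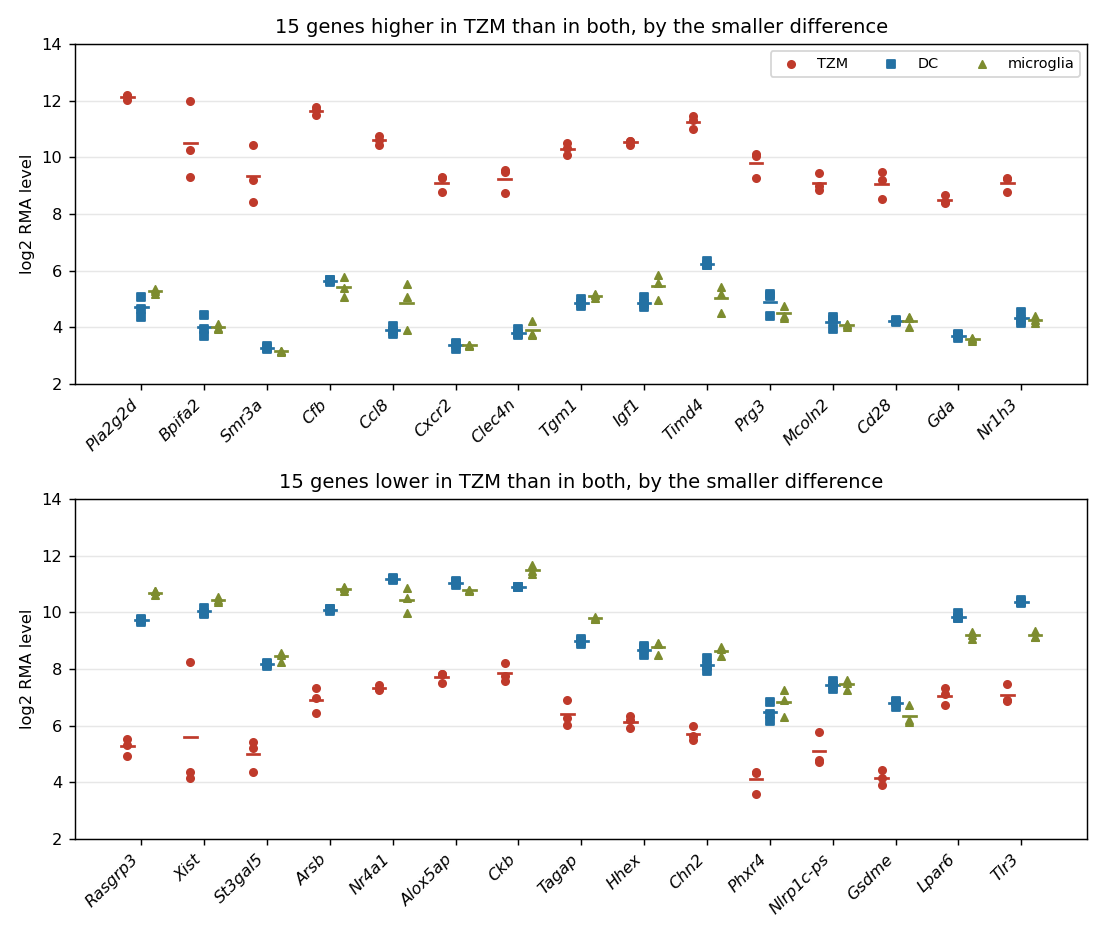
Log2 RMA level (vertical axis) of the 15 genes with the largest smaller difference in each direction; points are arrays (3 per population) and bars are group means. TZM points lie above all others in the upper panel, from Pla2g2d at 12.02 to 12.19 down to Nr1h3, and below all others in the lower panel, where Xist is the gene with 1 TZM array near the others.

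Of 36 measured genes for the recognition and engulfment of dying cells, 6 were higher in TZM than in both (16.7%, against 2.06% of all genes). Lower were 0 (against 0.592%), and 30 were not called. Timd4, a receptor for phosphatidylserine, read 11.47, 11.00 and 11.32 in TZM, 6.19, 6.34 and 6.20 in DC and 5.41, 4.49 and 5.17 in microglia. All TZM arrays were above the rest, by 5.02 (SE 0.22) against DC and 6.24 against microglia (larger limma adjusted p = 1.0e-06). Axl, a receptor kinase that binds phosphatidylserine through a bridging protein, read 10.42, 9.62 and 10.25 in TZM, 4.83 to 5.41 in DC and 5.87 to 6.09 in microglia. It was higher by 4.90 and 4.09 (limma adjusted p at most 4.3e-06). The scavenger receptors Colec12 (smaller difference 3.22) and Msr1 (2.19) and the lipid-binding receptor Cd300lf (2.12) were also higher than both. Cd300lf varied among TZM, at 8.05, 6.63 and 7.84, with replicate 2 lowest. Marco, a scavenger receptor, passed at 1.03 and 1.19 and missed the minimum of 1 when each array was centred on its median (0.98), without TZM replicate 2 (0.96) or without DC replicate 3 (0.95). The list median was 0.31 on the combined contrast against 0.01 over all genes. Against DC alone, 17 members were higher and 2 lower, and against microglia alone 10 were higher and 8 lower. C1qa, a complement subunit that coats dying cells, read 12.002, 11.37 and 11.73 in TZM and 11.75 to 11.93 in microglia, a difference of -0.15 (limma adjusted p = 0.74).

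Among the lists of genes by function, chosen with earlier results known, lipid handling had the second highest share of members called higher than both. Of 27 measured members, 11 were higher (40.7%, against 2.06% of all genes), 0 were lower, and the list median was 1.22. Nr1h3, the liver X receptor alpha, read 9.26, 8.76 and 9.25 in TZM, 4.55, 4.14 and 4.27 in DC and 4.16, 4.40 and 4.26 in microglia. It was higher by 4.77 and 4.82 (SE 0.16, limma adjusted p = 2.2e-07), and no array of the other groups exceeded 4.55. Its partner Rxra was higher by 2.53 and 1.79, and the fatty acid sensor Pparg by 1.45 and 2.37. Among genes for lipid transport, Apoe, the sterol carrier of lipoproteins, read 13.17, 12.83 and 13.08 in TZM, 9.63, 9.27 and 9.67 in DC and 11.74, 10.95 and 11.78 in microglia. It was already abundant in microglia and higher still in TZM by 1.54 (SE 0.22, limma adjusted p = 0.0014). Its genomic neighbour Apoc1, another apolipoprotein, was higher by 4.45 and 3.86. Pltp, which moves phospholipid between lipoproteins, was higher by 2.98 and 2.92, the cytosolic fatty acid carrier Fabp5 by 3.07 and 4.43, the desaturase Scd1 by 1.98 and 4.55, and the lipoprotein lipase Lpl by 3.25 and 1.64. Abcg1, a sterol exporter, was higher by 1.17 and 1.27 and fell to 0.97 without TZM replicate 1. Vldlr, a lipoprotein receptor, was higher by 1.31 and 1.18 and fell to 0.92 without that array. The sterol exporter Abca1 was not called against both: it was higher than in DC by 4.86 and differed from microglia by 0.44 (limma adjusted p = 0.10). Without TZM replicate 2, which was lowest for Rxra, Abcg1, Pltp and Vldlr, 13 members were higher than both.

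**Figure D3:**
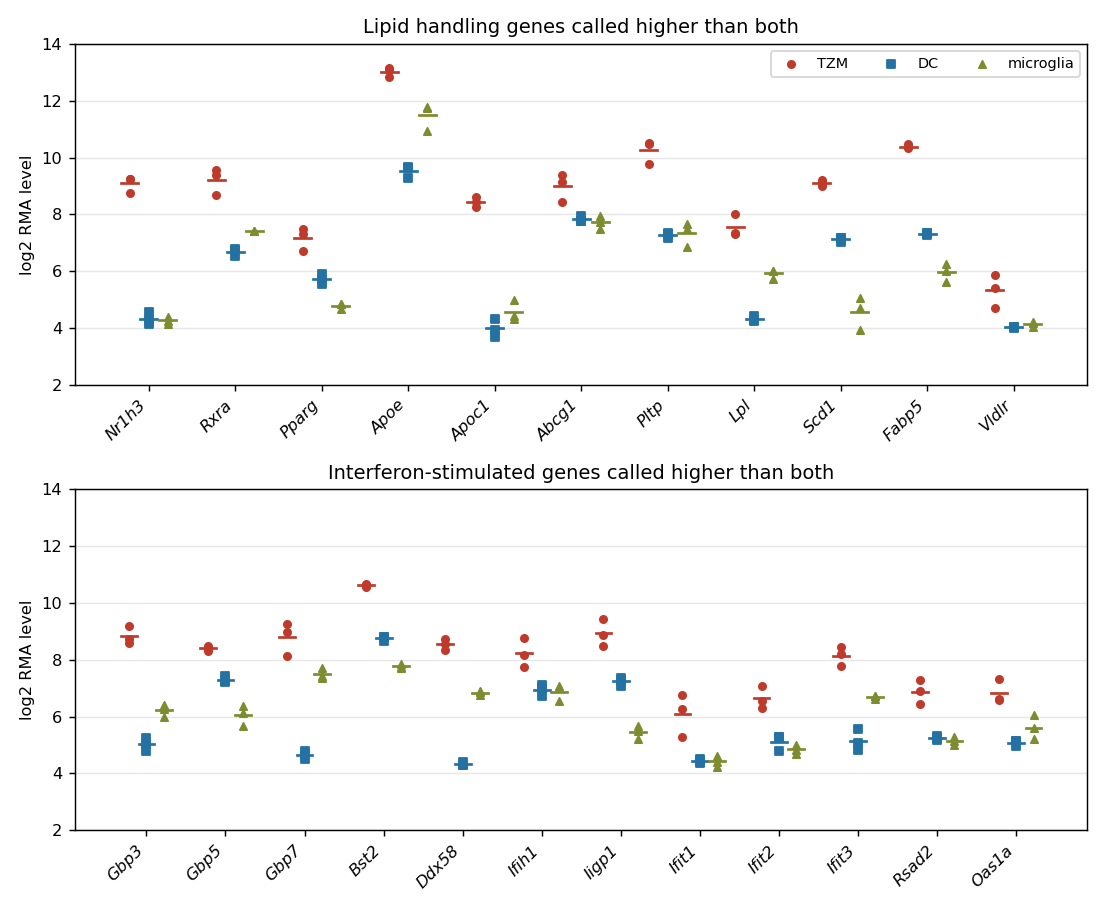
Log2 RMA level (vertical axis) of the 11 lipid handling genes (upper panel) and 12 interferon-stimulated genes (lower panel) called higher in TZM than in both; points are arrays and bars are means of 3. Apoe is high in microglia too, while Nr1h3 lies under 4.6 in all 6 other arrays, and Ifit1 has its lowest TZM array at 5.28.

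Interferon-stimulated genes had the highest share among the lists by function. Of 28 measured members, 12 were higher than both (42.9%, against 2.06% of all genes), 0 were lower, and the median was 1.295. Ddx58, the cytosolic RNA sensor RIG-I, read 8.74, 8.56 and 8.34 in TZM, 4.30, 4.42 and 4.29 in DC and 6.87, 6.76 and 6.89 in microglia. The groups were well separated, with TZM higher by 4.21 and 1.71 (SE 0.10, limma adjusted p = 7.1e-06). Ifih1, the RNA sensor MDA5, was higher by 1.28 and 1.34. The guanylate-binding proteins act against intracellular microbes: Gbp3 was higher by 3.81 and 2.62, Gbp7 by 4.14 and 1.296 and Gbp5 by 1.10 and 2.35, and the related GTPase Iigp1 by 1.69 and 3.48. Ifit1, Ifit2 and Ifit3, whose products bind viral RNA, were higher by at least 1.68, 1.53 and 1.45. Ifit1 read 6.27, 6.78 and 5.28 in TZM and no more than 4.63 elsewhere. Bst2, which tethers virus particles to the cell, was higher by 1.87 and 2.85 with a TZM range of only 10.58 to 10.67. Rsad2, an antiviral enzyme, was higher by 1.63 and 1.73, and the RNA-activated synthetase Oas1a by 1.76 and 1.22, and by 0.98 without TZM replicate 1. The list did not rise as a whole: Mx1, an antiviral GTPase, read 5.47, 5.68 and 5.48 in TZM and 6.76 to 7.52 in DC. No member was lower than microglia, and 2 were lower than DC.

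Receptors that sense microbes were also among the genes higher than both, 6 of 23 measured members (26.1%, against 2.06% of all genes). Ddx58 and Ifih1 are counted here too. Tlr8, an endosomal RNA receptor, was higher by 2.38 and 2.34 at a TZM mean of 5.95, Nod1, a sensor of bacterial peptidoglycan, by 1.95 and 2.47, and the inflammasome protein Nlrc4 by 1.49 and 1.403. Tlr1, a lipopeptide receptor, was higher by 3.53 and 1.14, and by 0.97 against microglia without TZM replicate 2. Tlr3, the endosomal receptor for double-stranded RNA, went the other way: it read 6.87, 7.48 and 6.91 in TZM, 10.42, 10.38 and 10.33 in DC and 9.13, 9.15 and 9.33 in microglia. TZM arrays lay below all others, at -3.29 and -2.12 (SE 0.15, limma adjusted p = 2.2e-05). Lower than both were also the inflammasome gene Nlrp1b (-1.69 and -1.44), the related pseudogene Nlrp1c-ps (-2.34 and -2.37), which may share its probes' sequence, and Gsdme (-2.62 and -2.19), a pore-forming protein of lytic cell death; Nlrp1b was named after its values were seen.

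C-type lectins and scavenger receptors had 12 of 36 measured members higher than both (33.3%, against 2.06% of all genes) and 0 lower, with a median of 1.10. Msr1, Marco and Colec12, described with the engulfment genes, are counted here too. Clec4n, the fungal receptor Dectin-2, read 9.55, 9.47 and 8.73 in TZM, 3.93, 3.73 and 3.77 in DC and 4.24, 3.75 and 3.78 in microglia. No other array came within 4 of the TZM arrays, and the differences were 5.44 and 5.33 (SE 0.22, limma adjusted p = 9.1e-07). Its neighbours on chromosome 6 were also higher: Clec4e, the receptor Mincle, by 3.30 and 3.35, and Clec4d by 1 and 1.19, which fell to 0.94 without TZM replicate 3 and 0.97 without DC replicate 3. Clec7a, the beta-glucan receptor Dectin-1, was higher by 2.76 and 3.59, Clec4a1 by 4.36 and 2.47, the podoplanin receptor Clec1b by 2.86 and 3.32, and the galactose-type lectin Clec10a by 1.57 and 1.46. Cd5l, a secreted protein of tissue macrophages, reached only 4.72 to 5.20 in TZM. Cd209b read 7.45, 5.33 and 5.78.

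Marco, Cd209b and Cd5l, together with Siglec1, are markers of macrophages of the lymph node sinuses. Siglec1 encodes CD169, which the gate excluded, yet its RNA read 8.15, 6.79 and 7.21 in TZM, 4.76, 4.78 and 5.14 in DC and 5.56 in each microglia array. Of 7 measured sinus macrophage markers these 4 were called higher in TZM (57.1%, against 2.06% of all genes). In all TZM arrays 5 stayed under a level of 6, with Vsig4 at 3.12 to 3.61, Cd163 at 3.86 to 4.06 and Clec4f at 4.34 to 4.55. The mean of the 7 was 4.88 to 5.40 in TZM, 3.99 to 4.02 in DC and 4.13 to 4.31 in microglia, and highest in TZM replicate 1, as were Siglec1 and Cd209b. The part of such cells in the results was not tested.

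Iron and heme genes had 7 of 25 measured members higher than both (28.0%, against 2.06% of all genes) and 0 lower (against 0.592%). Spic, the transcription factor of iron-recycling macrophages, read 10.29, 9.91 and 10.09 in TZM, 7.03, 7.44 and 6.85 in DC and 3.95, 3.74 and 3.30 in microglia. The 3 populations formed separate tiers, and TZM were higher by 2.98 and 6.43 (SE 0.20, limma adjusted p = 1.2e-05 at most). Vcam1, an adhesion molecule of the same macrophages, read 11.51, 11.16 and 11.48 in TZM and was higher by 3.45 and 5.05. Cp, the copper oxidase that loads iron onto its carrier, was higher by 4.79 and 3.82. The enzymes that reduce biliverdin after heme breakdown were higher too, Blvrb by 2.85 and 1.51 and Blvra by 1.39 and 1.22, as was the heme exporter Flvcr1 by 1.16 and 1.89, with a smaller difference of 0.994 when the mean of its probe sets was used. Slc48a1, a lysosomal heme transporter, was called at 1.03 and 1.19 (limma adjusted p = 0.045 and 0.025), and 13 of the alternative settings ended that call.

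Of 45 measured lysosomal genes, 7 were higher than both (15.6%, against 2.06% of all genes), 1 was lower and 37 were not called; against DC alone 27 were higher. Acp5, an acid phosphatase, read 11.32, 10.61 and 11.48 in TZM, 6.93 to 7.10 in DC and 4.46 to 4.63 in microglia. It was higher by 4.14 and 6.58 (limma adjusted p = 1.6e-06 at most). The lysozymes Lyz1 and Lyz2, closely similar neighbours whose probes can cross-react, were higher by 3.37 and 2.07 against DC and 4.42 and 2.31 against microglia. The protease activator Ctsc was higher by 3.05 and 1.19, the glucosidase Gaa by 2.17 and 1.12, the proton pump subunit Atp6v0d2 by 1.93 and 1.999, and the acid phosphatase Acp2, which lies next to Nr1h3, by 4.17 and 1.10; the last was 0.90 against microglia without TZM replicate 1, and Gaa 0.98. Pld3, a lysosomal nuclease, was higher by 5.35 and 1.72, and Mcoln2, a calcium channel of endosomes and lysosomes, by 4.90 and 5.03. Arsb, the sulfatase that degrades dermatan sulfate, read 6.46, 6.97 and 7.33 in TZM, 10.03 to 10.12 in DC and 10.74 to 10.89 in microglia. It was lower in every TZM array, at -3.17 and -3.91 (SE 0.19, limma adjusted p = 5.3e-06).

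Of 22 measured complement genes, 4 were higher in TZM than in both (18.2%, against 2.06% of all genes). Lower were 0 (against 0.592%), and 18 were not called. Cfb, factor B, which forms the alternative pathway convertase, read 11.78, 11.48 and 11.66 in TZM, 5.69, 5.68 and 5.600 in DC and 5.41, 5.77 and 5.06 in microglia. It was higher by 5.98 and 6.23 (SE 0.16, limma adjusted p = 8.0e-08). Cfp, properdin, which stabilises that convertase, read 11.18, 10.10 and 11.07 and was higher by 2.89 and 5.45. C2, the neighbour of Cfb and its counterpart in the classical pathway, was higher by 2.53 and 2.50, and Cd55, which speeds the decay of convertases, by 1.86 and 1.95. The last 3 spanned over 1 among TZM arrays, with replicate 2 lowest for Cfp and C2 and highest for Cd55, at 4.75, 6.29 and 4.39.

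Chemokines went both ways, with 5 of 32 measured members higher than both (15.6%, against 2.06% of all genes) and 1 lower (3.12%, against 0.592%). Ccl8, a monocyte and T cell attractant, read 10.61, 10.75 and 10.43 in TZM, 3.76, 3.88 and 4.05 in DC and 5.07, 3.92 and 5.55 in microglia. It was higher by 6.70 and 5.75 (SE 0.35, limma adjusted p = 8.4e-06). Cxcl13, which attracts B cells, was higher by 3.43 and 3.32, Cxcl10, which attracts activated T cells, by 1.91 and 2.24, and Ccl19, which guides cells with the receptor Ccr7 into the T zone, by 1.71 and 2.90. Xcl1, the ligand of the receptor Xcr1 carried by type 1 DC, read 7.14, 7.64 and 7.74 in TZM and 6.45 to 6.50 in DC. Its difference from DC was 1.02, and 0.98 after each array was centred on its median. Leaving out TZM replicate 2 or 3 lowered it to 0.96 or 0.91. Ccl4, an inflammatory chemokine, was lower, at 8.12, 8.60 and 8.17 in TZM against 10.03 to 10.19 in DC and 11.67 to 12.19 in microglia. Ccl19 and Cxcl13 are also made by fibroblastic reticular cells. Of 10 measured markers of those cells, 3 were called higher (30.0%, against 2.06% of all genes), these and Dcn (4.97, 5.04 and 4.28 in TZM). In all, 9 of the 10 lay above both other means and 0 below both, against 34.4% and 26.5% of all genes. Pdpn lay at 4.48 to 4.65 and Col1a1 at 5.98 to 6.14 in TZM, with DC at 4.18 to 4.75 and 5.83 to 5.98. The mean of the 10 was 5.46 to 5.62 in TZM, 4.72 to 4.88 in DC and 4.75 to 4.78 in microglia, and its part in the result was not tested.

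Cxcr2, the chemokine receptor by which neutrophils are recruited, was the 1 receptor of 22 measured that passed (4.55%, against 2.06% of all genes). It read 9.29, 9.27 and 8.77 in TZM and 3.24 to 3.45 in all other arrays. The difference was 5.74 (SE 0.14, limma adjusted p = 4.5e-08) from either population. Of 12 neutrophil markers, S100a8 and S100a9 were called higher with Cxcr2, 8 lay above both other means and 0 below both. Ly6g was at 3.13 to 3.24 in TZM, 3.03 to 3.13 in DC and 3.10 to 3.26 in microglia. Mpo was at 4.22 to 4.44 and Elane at 4.80 to 4.84 in TZM. The mean of the 12 was 5.21 to 5.87 in TZM, highest in replicate 2, 4.12 to 4.20 in DC and 4.51 to 4.57 in microglia. S100a8 read 5.89, 9.28 and 7.32 in TZM. The part of neutrophil RNA in these results was not tested.

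Of 21 measured cytokine genes, 4 were higher than both (19.0%, against 2.06% of all genes), 4 lower (19.0%, against 0.592%) and 13 not called. Among the higher were the antagonists Il18bp, which binds interleukin-18, and Il1rn, which blocks the interleukin-1 receptor. Il18bp read 10.85, 10.90 and 10.79 in TZM, 6.597 to 6.81 in DC and 6.31 to 6.97 in microglia (differences 4.13 and 4.10, SE 0.17, limma adjusted p = 7.8e-07). Il1rn was higher by 2.13 and 1.99, with TZM replicate 2 highest at 7.86. The cytokine Il18 itself was higher by 2.77 and 2.05, and Il12a, a subunit of interleukin-12, by 1.73 and 1.71. Lower than both were Il1b, Tnf, Il6 and Ebi3. Il1b read 8.70, 7.86 and 8.43 in TZM, 11.38 to 11.47 in DC and 9.30 to 10.40 in microglia (-3.10 and -1.48, limma adjusted p = 0.0071 at most). Tnf was at -1.37 and -2.10, Il6 at -1.56 and -2.36 and Ebi3, a subunit of interleukin-27, at -2.11 and -1.18. Il6 stayed under 6 in every array, and fewer than 3 arrays reached 6 for Il12a.

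Growth and trophic factors had 5 of 33 measured members higher (15.2%, against 2.06% of all genes) and 0 lower (against 0.592%). Igf1, an insulin-like growth factor made by many tissue macrophages, read 10.59, 10.58 and 10.43 in TZM, 4.73, 4.83 and 5.07 in DC and 5.86, 4.98 and 5.56 in microglia. The TZM arrays were tightly grouped and higher by 5.66 and 5.07 (SE 0.20, limma adjusted p = 7.1e-07). Hbegf, a ligand of the epidermal growth factor receptor, was higher by 5.06 and 3.63, Pdgfc, a mitogen of stromal cells, by 4.05 and 3.61, the vessel growth factor Vegfa by 2.72 and 2.56, and Gdf3 by 1.56 and 1.60. Proteases and matrix genes had 9 of 36 measured members higher (25%, against 2.06% of all genes) and 1 lower (2.78%, against 0.592%). Mmp14, a membrane-bound collagenase, read 9.86, 9.58 and 9.95 in TZM and was higher by 4.76 and 3.15, and Mmp2, the gelatinase that it activates, by 4.59 and 2.17. Timp2, which takes part in that activation, was higher by 6.74 than DC and by 1.38 than microglia, where it already stood at 9.48. The protein cross-linkers Tgm1 (5.43 and 5.19) and Tgm2 (3.30 and 1.45), the protease inhibitors Cst7 (5.38 and 4.51) and Serpinb6a (3.88 and 3.85) and the metalloproteases Mmp12 (1.92 and 2.11) and Adamdec1 (3.97 and 3.89) completed the higher genes. Serpinf1, an inhibitor of vessel growth, was lower at -1.65 and -2.54.

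**Figure D4:**
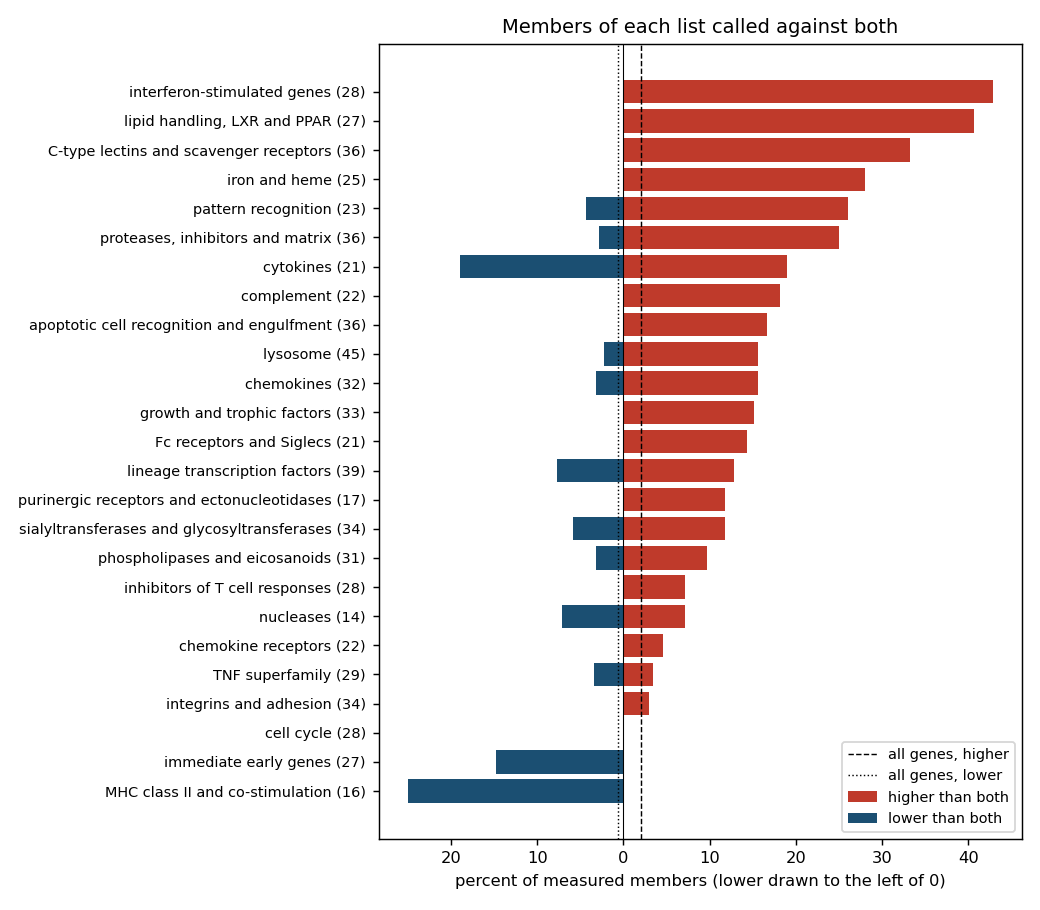
Percent of the measured members of the gene lists (number in brackets) called higher than both populations (bars to the right) or lower than both (bars to the left); dashed and dotted lines give the shares over all genes, 2.06% and 0.592%. Interferon-stimulated and lipid handling genes have the longest bars to the right at 42.9% and 40.7%, and MHC class II and co-stimulation the longest to the left at 25%. The 4 lower members of that last list are Cd83, Icosl, H2-Oa and H2-Ob. The lists were chosen with earlier results of these data known.

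Of 16 measured class II and co-stimulation genes for antigen presentation to T cells, 4 were lower than both (25%, against 0.592% of all genes). Higher were 0 (against 2.06%), and 12 were not called. Against DC alone 9 were lower and 0 higher. The DC gate took cells with high MHC class II, so differences of class II genes from DC can follow from that gate and are not findings. Against microglia alone 4 were lower and 5 higher, and 2 members had opposite calls. Cd83, a surface marker of activated antigen-presenting cells, read 10.08, 9.18 and 10.20 in TZM, 11.62 to 11.70 in DC and 11.48 to 11.79 in microglia. It was at -1.84 and -1.78 (SE 0.24, limma adjusted p = 0.00088 at most). Icosl, the ligand of the T cell receptor Icos, was at -1.84 and -1.59. H2-Oa and H2-Ob encode the chains of a protein that restrains peptide loading, so their direction is not that of the presenting molecules; they were at -3.58 and -3.76 against DC and -1.12 and -1.05 against microglia. The H2-Oa difference from microglia was -0.98 without microglia replicate 2, and the H2-Ob call ended under 5 settings, among them the replicate block (limma adjusted p = 0.068) and the fits without TZM replicate 1 (-0.75), microglia replicate 1 (-0.83) or microglia replicate 3 (limma adjusted p = 0.058). Of 28 measured inhibitors of T cell responses, 2 were higher (7.14%, against 2.06% of all genes) and 0 lower. They were the lectin Lgals1, by 1.299 and 3.56, and the inhibitory receptor Lilrb4a, by 2.77 and 2.91. Lgals1 had a limma adjusted p of 0.057 without DC replicate 2. Cd274, which encodes the T cell inhibitor PD-L1, was between the others, with TZM at -0.26 against DC and 2.43 above microglia.

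Cd28, the co-stimulatory receptor of T cells, read 9.19, 9.50 and 8.54 in TZM, 4.20, 4.22 and 4.28 in DC and 4.37, 4.02 and 4.32 in microglia. It was higher by 4.84 against either (SE 0.22, limma adjusted p = 1.4e-06). Cd4, the T helper co-receptor, read 11.06, 10.59 and 10.83 in TZM, and Thy1, a T cell surface protein, 6.89, 5.87 and 7.02. The chains of the T cell antigen receptor complex read lower than Cd28 and Cd4. Cd3d read 4.81, 4.78 and 5.10, Cd3g 3.94, 4.37 and 5.02 and Cd3e 6.08, 5.97 and 6.38 in TZM. All 3 were within 1.20 of both other means. The mean of 10 T cell markers was 5.91 to 6.12 in TZM, 4.67 to 4.81 in DC and 4.43 to 4.49 in microglia. Of the 10, 3 were called higher (30.0%, against 2.06% of all genes). Above both other means lay 9 and below both 1, against 34.4% and 26.5% of all genes. Among 8 NK cell markers, Gzma (4.86, 6.15 and 6.02 in TZM), Gzmb and Nkg7 were called higher (37.5%, against 2.06% of all genes). Of the 8, 7 lay above both other means and 0 below both, and Klre1 lay at 3.10 to 3.30 in TZM. Their mean was 4.32 to 4.91 in TZM, 3.85 to 3.92 in DC and 3.73 to 3.82 in microglia. Of 9 measured B cell markers, 1 was called higher (11.1%, against 2.06% of all genes), 7 lay above both other means and 0 below both. Their mean was 4.89 to 5.15 in TZM, 4.55 to 4.78 in DC and 4.18 to 4.33 in microglia. Cd79b, not called, read 9.69, 8.27 and 9.86 in TZM, with means of 6.63 in DC and 7.85 in microglia. The part of lymphocyte RNA in these results was not tested.

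Transcription factors were 5 higher (12.8%, against 2.06% of all genes) and 3 lower (7.69%, against 0.592%) of 39 measured. Beside Nr1h3, Spic and Pparg, Tfec, a relative of the lysosomal regulators of the MiT family, read 9.50, 8.91 and 9.46 in TZM, 3.72 to 4.13 in DC and 4.90 to 5.08 in microglia. The groups did not overlap, with differences of 5.43 and 4.27 (SE 0.18, limma adjusted p = 8.4e-07). Bhlhe40, a repressor, was higher by 1.37 and 5.28. Lower were Hhex (-2.54 and -2.63), a homeobox factor, Irf5 (-1.77 and -1.47), which drives inflammatory cytokines, and the repressor Bcl6 (-2.97 and -1.03), whose difference from microglia was -0.96 without microglia replicate 3 and -0.99 without replicate 1.

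The list of immediate early genes had 4 of 27 measured members called lower than both (14.8%, against 0.592% of all genes). Higher were 0 (against 2.06%), and 23 were not called. Below both means lay 13, against 26.5% of all genes, and the list median was -0.74. Nr4a1, an orphan nuclear receptor induced within minutes of stimulation, read 7.27, 7.28 and 7.45 in TZM, 11.22, 11.12 and 11.17 in DC and 10.84, 9.98 and 10.51 in microglia. All TZM arrays were lower, at -3.84 and -3.11 (SE 0.19, limma adjusted p = 7.9e-06). Btg2, an antiproliferative gene, was at -2.02 and -2.71, and Ier3, a survival gene, at -1.63 and -3.36. Egr2, a zinc finger factor, was at -1.62 and -1.75, with TZM at 10.51, 8.72 and 10.03; leaving out DC replicate 1 or 3 ended that call (limma adjusted p = 0.052 and 0.058). Fos was not among them: it read 10.71, 9.76 and 10.65 in TZM and 10.56 to 10.61 in DC. These genes also respond to tissue digestion, and the labels give a common digestion for all tissues; the part of that step was not tested.

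The largest decrease was in a signalling gene. Rasgrp3, an exchange factor that activates Ras and Rap, read 5.33, 5.55 and 4.94 in TZM, 9.78, 9.72 and 9.66 in DC and 10.74, 10.60 and 10.75 in microglia. It was lower in every TZM array, at -4.45 and -5.43 (SE 0.14, limma adjusted p = 1.6e-07). Its relative Rasgrp1, known from T cells, was higher, at 7.80, 7.75 and 7.23 in TZM and 4.21 to 4.66 elsewhere, by 3.04 and 3.30. Glycosylation genes also exchanged members: St3gal5, which makes the ganglioside GM3, was lower at -3.17 and -3.44, and the mucin-type glycosyltransferase Galnt7 at -2.71 and -1.18. The sialyltransferases St6galnac3 (3.80 and 3.75), St6galnac2 (2.62 and 2.72) and St8sia6 (2.11 and 2.19) and the transferase Galnt3 (2.71 and 1.17) were higher. Of 34 measured, 4 were higher (11.8%, against 2.06% of all genes) and 2 lower (5.88%, against 0.592%). Lower as well were Ckb, the brain-type creatine kinase (-3.04 and -3.64), the lysophosphatidic acid receptor Lpar6 (-2.79 and -2.14) and the nuclease-like gene Endod1 (-1.99 and -1.48). Other lists held few called members. Higher were the ATP-gated channel P2rx4 (2.21 and 2.51) and adenosine deaminase Ada (2.64 and 1.98) among 17 purinergic genes (11.8%). Tnfsf15 was higher (2.69 and 2.77) among 29 genes of the TNF superfamily (3.45%), and Vcam1 among 34 adhesion genes (2.94%). In the list of 21 Fc receptors and Siglecs, Cd22 (2.16 and 2.13) and Siglec1, a gate gene, were higher. The list also held the lectin Fcna (1.60 and 1.62), which is neither kind, and the 3 made 14.3%. The share over all genes was 2.06%. Of 28 cell cycle genes, 0 were called against both in either direction, against 2.06% higher and 0.592% lower over all genes. Against DC alone, 17 were lower.

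Position on the chromosomes, which the rule did not use, was described by neighbours in RefSeq order. For 31 of the 410 genes higher in TZM (7.56%) the next tested gene was also higher, against 2.07% for all genes, and for 5 of the 118 lower (4.24%) it was also lower, against 0.594%. The runs included Ifit2, Ifit3 and Ifit3b on chromosome 19, Gbp5, Gbp7 and Gbp3 on chromosome 3, Cfb and C2 on chromosome 17, and Nr1h3 and Acp2 on chromosome 2. Many of these are relatives by duplication, and probes can cross-react between relatives. The fold minimum cut through a continuous range. Just inside were Clec4d, at the minimum of 1, Depdc7 and Lrp6 (both 1.002) and, for lower genes, Abi2 (-1.001), Wdr44 (-1.01) and Fmo5 (-1.03), each of which lost its call without 1 or more of the arrays. Just outside were Lysmd2 (0.999), Il12rb2 and Hagh (0.99) and, below, Hcfc2 and Itpripl1 (-0.99) and Gclc (-0.98).

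TZM varied more among their own arrays than the other populations did. Of 7446 genes that reached a level of 6 in at least 1 TZM array, 509 (6.84%) spanned 1 or more between the highest and lowest TZM array. The same count was 85 of 7163 genes (1.19%) in DC and 182 of 7294 (2.50%) in microglia; these shares were not tested. Replicate 2 was the array apart from the other 2 in 383 of the 509, replicate 3 in 86 and replicate 1 in 40. Among the 509 were 77 genes called higher than both, 17 called lower and 415 not called.

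**Figure D5:**
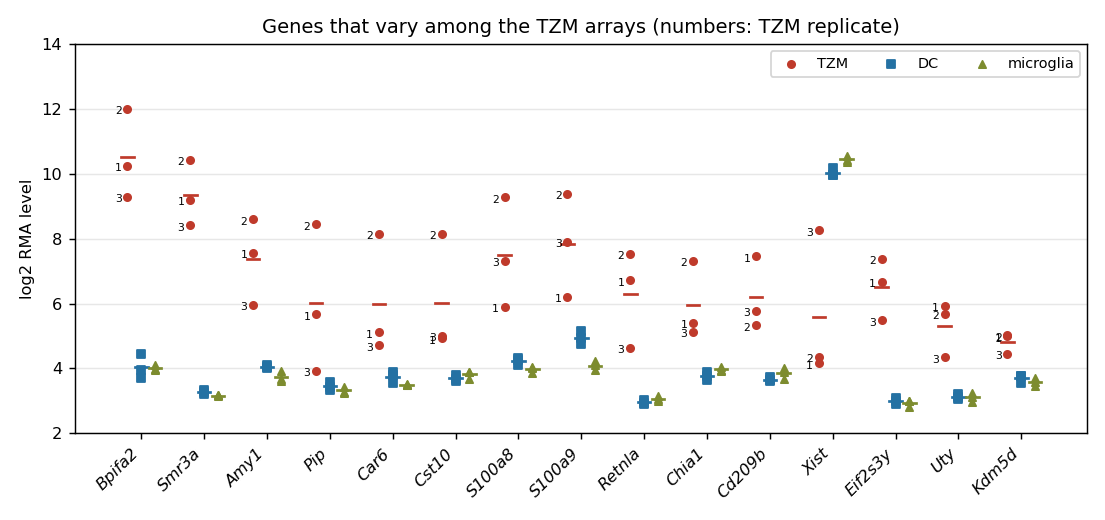
Log2 RMA level (vertical axis) of 15 genes that vary among TZM arrays; points are arrays, numbers beside TZM points give the replicate, and bars are means of 3. The salivary genes from Bpifa2 to Cst10 and S100a8 and S100a9 are highest in TZM replicate 2, and Xist is near 8.26 in replicate 3 alone.

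The widest spans among called genes included products of salivary gland. Bpifa2, a secreted protein of saliva, read 10.24, 11.998 and 9.29 in TZM, 3.70 to 4.45 in DC and 3.95 to 4.11 in microglia. Smr3a, another salivary protein, read 9.19, 10.42 and 8.41, and the salivary amylase gene Amy1, whose probes may also match its pancreatic relatives, 7.56, 8.59 and 5.97. All TZM arrays were above all others for the 3 genes, in the same order, with replicate 2 highest and replicate 3 lowest. Bpifa2 was higher by 6.48 and 6.50 (SE 0.58, limma adjusted p = 8.1e-05 at most), second to Pla2g2d. Pip (5.67, 8.44 and 3.93), Car6 (5.11, 8.14 and 4.71) and Cst10 (4.93, 8.15 and 5.01), also known from saliva, were highest in replicate 2, lay above all other arrays in each TZM array, and were not called. Of 21 measured salivary genes 3 were called (14.3%, against 2.06% of all genes) and 15 stayed under 6 in all TZM arrays. The mean of the 21 was 4.87, 5.61 and 4.62 in TZM, 3.76 to 3.89 in DC and 3.71 to 3.78 in microglia. These salivary genes were highest in replicate 2, and their part in other genes that are high there, such as Chia1 (5.41, 7.31 and 5.12), Kcng3 (5.48, 6.90 and 4.99) or Cd55, was not tested. Chia1 lost its call when any 1 microglia array was left out (limma adjusted p = 0.055 to 0.068).

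Other wide spans were of S100a8 (5.89, 9.28 and 7.32 in TZM) and S100a9 (6.21, 9.39 and 7.89), calcium-binding proteins abundant in neutrophils, and of Retnla (6.71, 7.54 and 4.63), a secreted protein of alternatively activated macrophages. Genes lowest in replicate 2 included Hebp1, a heme-binding protein (9.81, 7.97 and 9.73), Mmp2 (9.74, 8.39 and 9.96), Adamdec1 (8.06, 6.77 and 8.39) and the lipid droplet gene Hilpda (7.39, 5.65 and 7.29), whose call was lost in 10 alternatives. Without replicate 2, 447 genes were higher than both, of which 393 were among the 410, and 125 were lower, of which 107 were among the 118.

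Sex-linked genes differed between the populations, and the labels give no sex. Xist, the noncoding RNA of the inactive X chromosome, read 4.16, 4.36 and 8.26 in TZM, 9.95 to 10.17 in DC and 10.35 to 10.55 in microglia. The Y-linked Eif2s3y read 6.67, 7.37 and 5.48 in TZM and 2.81 to 3.07 in all other arrays, and Uty and Kdm5d were higher than both by at least 2.18 and 1.12. Replicate 3 had the highest Xist and the lowest Eif2s3y of the TZM arrays. DC and microglia arrays thus read high for Xist and near the low end of the scale for the Y-linked genes. Of 9 tested Y genes 3 were higher in TZM, and of 739 X genes 12 were higher and 3 lower (1.62% and 0.406%, against 2.06% and 0.592% of all). The sex of the animals and the population cannot be told apart for the other genes described here.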

How the data were processed

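The authors deposited log2 expression levels. According to the submitters' processing notes they were made in Affymetrix Expression Console 1.3.1 by RMA (robust multi-array averaging), which corrects background, brings the arrays to 1 distribution and combines the probes of a probe set. The genome build behind the probe annotation is not given in the sources used here. The table held 35556 probe sets in 9 arrays, from 2.04 to 13.6; in the platform annotation 21789 had 1 gene symbol, of which 21698 matched RefSeq genes of GRCm38.p6, 1621 had several symbols and 12146 had none, and the last 2 kinds were left out. For the 999 genes with several probe sets, the probe set brightest on average was used, leaving 19938 genes, with array medians of 4.90 to 5.02. No 2 arrays were identical. There is no detection call, so low levels are not separated from background, and a difference against a low level is understated. The number of arrays limits the precision.

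All 9 arrays entered 1 fit with limma 3.58.1 (lmFit, eBayes) in R 4.3.3, with group as the only term; SE and adjusted p-values are from this fit. Counts, spans, neighbours and motif matches were computed in Python 3.11.15. The fit was tested on simulated data. Members, gene lists and alternatives were chosen with earlier results of these data known. Named genes are the 15 of largest smaller difference per direction with non-overlapping arrays, called members of the function lists, the 15 widest TZM spans among called genes and among all at 6 or more, the 3 on each side of the fold minimum, and gate and marker genes. Predicted genes, clones, small RNAs and receptor segments were counted but not named. Other genes named to show a gene of the same list or family were chosen after their values were seen. Replicate numbers did not pair the samples: deviations of arrays with the same number correlated at -0.145 to 0.128. Alternatives were other minimum differences, a level filter, median centring, quantile normalization, other probe set rules, 1 adjustment over the larger p-value, array weights, trended and robust eBayes, the replicate block and each array left out. The result of 1 further gene list is not reported here.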

Additional observations from a re-analysis of the deposited data

How the results depend on the processing

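The counts of genes higher and lower than both (410 and 118) and on the combined contrast (659 and 306) depended most on the minimum difference. With no minimum they were 872 and 471, and 1512 and 1288 on the combined contrast; with a minimum of 2 they were 163 and 19, and 273 and 57. With every probe set tested, 485 were higher and 215 lower, and 779 and 642 on the combined contrast. Of the genes spanning 1 or more among TZM arrays (509), 27 spanned 2 or more. Leaving out 1 array at a time gave 401 to 447 genes higher and 109 to 125 lower, and 635 to 688 and 289 to 321 on the combined contrast. With the replicate number as a block, although the numbers do not pair the samples, 407 were higher and 116 lower, 652 and 304 on the combined contrast. Median centring gave 392 higher and 124 lower, quantile normalization 389 and 127. No gene named here changed its direction. Of 156 named genes called against both, 117 were tested and kept the call in every alternative but the minimum of 2. The call was lost at least once by 23, where the cause was not tested. The filter at a level of 6 left out 21. Among them were Il6, Il12a, Cd5l, Cd55, Clec10a, Vldlr, Atp6v0d2, Nlrc4, Ifit1 and Tlr8. No detection call separates low levels from background, which limits the 52 genes higher in TZM that lie under 6 there too.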

Other observations

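The genes in these paragraphs lie outside the lists above and were chosen after their values were seen, so they are descriptions. Semaphorins steer axons and migrating cells through plexin and neuropilin receptors. Of 31 measured semaphorins, plexins and neuropilins, 6 were higher in TZM than in both, 0 lower and 25 not called. Over all genes the shares were 2.06% higher and 0.592% lower. Plxnd1 read 9.29, 8.84 and 9.55 in TZM and 4.71 to 5.11 in all other arrays, with differences of 4.21 from DC and 4.43 from microglia. Plxna1 was higher by 4.29 and 4.06 and Plxna2 by 2.71 and 2.58, both with TZM replicate 2 lowest (8.94 and 6.43). The co-receptor Nrp2 was higher by 4.02 and 1.91, and the ligands Sema6d by 2.67 and 2.59 and Sema3a by 2.46 and 2.38.

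Ripk3 and Mlkl, the kinase and the effector of necroptosis, were both higher, by 1.18 and 2.24 and by 1.18 and 1.29, the latter at TZM levels of 4.77 to 5.02. Of the interferon-inducible HIN-200 family, whose members bind DNA, Ifi203 was higher by 3.30 and 4.30, Ifi206 by 3.04 and 2.60 and Ifi213 by 3.24 and 2.56; its members are near relatives and probes may cross-react. Receptors better known from lymphocytes were higher as well: Slamf6 read 8.85, 9.42 and 8.77 in TZM and 5.21 to 6.46 elsewhere, Ly9 was higher by 1.85 and 2.75, Icos by 1.38 and 3.67 and Cd72 by 1.83 and 1.35. Members of the Ms4a cluster followed, with Ms4a7 at 10.22 to 10.70 in TZM, 4.40 to 5.20 in DC and 6.80, 4.37 and 6.63 in microglia, where replicate 2 was lowest. Il22ra2, the soluble antagonist of interleukin-22, read 7.21, 6.39 and 6.54 in TZM and 3.42 to 3.79 elsewhere.

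The NADPH oxidase subunit Cybb read 11.27, 11.02 and 11.23 in TZM and was higher by 3.77 and 4.41. With 3 arrays per group, no array could be examined as an outlier by the rule used for larger groups.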
